A study of Mus musculus with 3 samples.

Results

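The genes examined here encode inward rectifier potassium channels, tandem-pore leak potassium channels, calcium- and sodium-activated potassium channels, and hyperpolarisation-activated cyclic nucleotide-gated (HCN) cation channels. They were taken from a fixed list of 41 mouse gene symbols. All 41 were found among the 46073 Ensembl genes of an RNA-seq table of medial prefrontal cortex (mPFC), part of the frontal cortex. The mice were naïve C57BL/6 animals aged 3 months, and the labels name no treatment, allele or second condition. The series comprises 3 samples, 1 each for methylated DNA immunoprecipitation, input DNA and RNA, of which the RNA sample was used. Its design text states 3 replicates for RNA, but the table gives 1 value per gene. No value below therefore has an error, no difference between genes could be tested, and every ratio compares 2 genes within 1 table. Fewer cells of a type and less RNA per cell cannot be told apart in tissue RNA.

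These channels set how a neuron or glial cell behaves near rest. Inward rectifiers pass potassium best at negative voltages and hold the membrane near the potassium equilibrium potential, tandem-pore channels carry the background leak, and calcium- and sodium-activated channels open after spikes and shape firing. HCN channels pass a depolarising cation current at negative voltages, and in pyramidal cells of the cortex they are known for damping distal dendritic input. In glia, inward rectifiers take up the potassium that active neurons release.

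Of the 41 genes 27 stood at 1 FPKM or more, the level at which a gene was called detected. FPKM is fragments per kilobase of transcript, scaled to the mapped fragments of the library, which is a level per length, so genes can be ranked within the sample. The same floor was reached by 31.5% of all rows and by 58.6% of protein-coding rows, so the share of channel genes, all of them protein coding, lay near that of protein-coding genes. Their median was 3.14 FPKM, against 2.58 FPKM over 20631 protein-coding rows and 0.0414 FPKM over all rows. Of the 41 genes 12 were at 10 FPKM or more (29.1% of protein-coding rows were), 15 lay from 1 to under 10 FPKM, 7 from 0.1 to under 1 FPKM and 7 under 0.1 FPKM. None was listed at 0. Ratios to a gene under the floor divide by a very low value, so the size of such a fold is uncertain wherever it is given below. The 5 highest genes, Kcnj4, Kcnj9, Kcnj3, Kcnk1 and Kcnj10, held 45.2% of the summed FPKM of the set and the 10 highest held 74.3%.

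**Figure D1:**
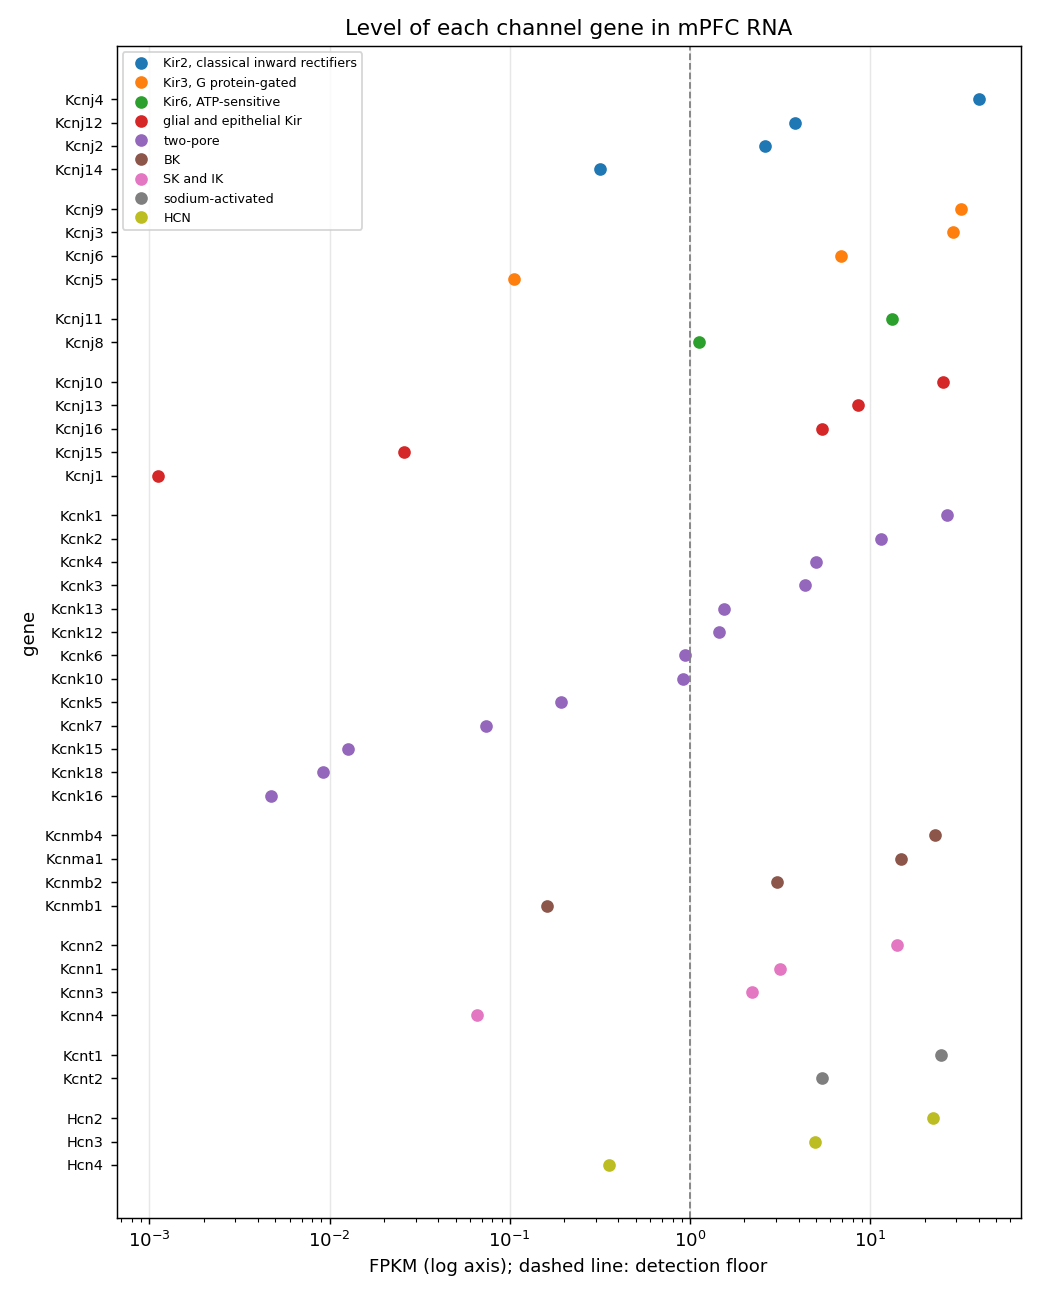
Level of each of the 41 channel genes in the RNA sample, 1 point per gene, on a log axis in FPKM, grouped by channel class; the dashed line marks the floor of 1 FPKM. In 9 of 9 classes the highest gene is above the floor, and genes of 1 class lie far apart, from 0.00111 FPKM (Kcnj1) to 25.2 FPKM (Kcnj10) among the glial and epithelial inward rectifiers.

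Marker genes of broad cell types, choroid plexus and striatum were looked at, with medians taken over every marker of a list. No list was made for cortical layers or prefrontal cortex, so these counts do not check the mPFC label itself. All 5 neuronal markers were detected, with a median of 303 FPKM, as were 6 of 6 astrocyte markers (84.4 FPKM), 4 of 4 oligodendrocyte markers (288 FPKM), 2 of 2 precursor markers (3.98 FPKM), 4 of 4 microglial markers (13.8 FPKM), 3 of 3 endothelial markers (3.47 FPKM), 4 of 5 mural cell markers (4.44 FPKM) and 5 of 5 choroid plexus markers (4.72 FPKM). Of 5 striatal markers 3 were detected (median 1.63 FPKM), Ppp1r1b at 59.6, Drd1 at 2.77 and Drd2 at 1.63 FPKM, while the transcription factor genes Six3 and Isl1 were at 0.272 and 0.0772 FPKM.

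Among the classical, strongly rectifying inward rectifiers, which stabilise the resting potential, Kcnj4 stood far above its relatives. Kcnj4 (ENSMUSG00000044216; chromosome 15, 79480226 to 79512511, GRCm38) was at 40.3 FPKM, the highest level of the 41 genes and above 91.6% of protein-coding rows. Kcnj12 was at 3.80 FPKM and Kcnj2, the resting potential channel gene of heart and skeletal muscle, at 2.62 FPKM. Kcnj4 was thus 10.6-fold above Kcnj12 and 15.4-fold above Kcnj2, while Kcnj12 and Kcnj2 lay within 1.45-fold. Kcnj14, known from cranial motor neurons, was under the floor at 0.317 FPKM, 127-fold below Kcnj4. Kcnj4 alone held 11.9% of the FPKM of all 41 genes, and its whole class 13.9%. The promoter of Kcnj4 is shown because it belongs to the highest gene of the set and is dense in CpG, the dinucleotide that mammalian DNA methylation acts on. It is the 250 bases before a RefSeq start that lies 7.27 kb inside the gene's span (GRCm38.p6, chr15:79505242-79505491, minus strand), written 5′ to 3′ with each CpG in capitals, and it holds 35 CpG.
Kcnj4: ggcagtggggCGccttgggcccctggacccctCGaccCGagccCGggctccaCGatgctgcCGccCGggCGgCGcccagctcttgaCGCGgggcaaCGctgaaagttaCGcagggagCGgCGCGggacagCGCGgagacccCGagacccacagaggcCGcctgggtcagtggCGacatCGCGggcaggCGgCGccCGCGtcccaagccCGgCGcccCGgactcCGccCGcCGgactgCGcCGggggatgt

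The G protein-gated inward rectifiers had the highest class median, at 17.8 FPKM over 4 genes, although by geometric mean they stood at 8.62 FPKM, below the sodium-activated genes at 11.8 FPKM. These subunits form tetramers that open when a Gi/o-coupled receptor releases G protein beta-gamma dimers, and they carry slow inhibition by GABA-B receptors. Kcnj9 (ENSMUSG00000038026; chromosome 1, 172320508 to 172329322) was at 32.0 FPKM and Kcnj3 (ENSMUSG00000026824; chromosome 2, 55411798 to 55598145) at 28.8 FPKM, within 1.11-fold of each other. Kcnj6, whose protein is the subunit that can form channels on its own and carries Kcnj3 and Kcnj9 proteins to the surface, was at 6.88 FPKM. It stood 4.18-fold below Kcnj3 and 4.65-fold below Kcnj9. Kcnj5, the partner of Kcnj3 in the heart atrium, was under the floor at 0.106 FPKM, 65.1-fold below Kcnj6. Together the class held 20.0% of the FPKM of the set, more than any of the other 8 classes as grouped here.

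Receptors and regulators of the G protein-gated channels were nearly all detected. Of 13 receptors that can open them 12 passed the floor, and the median of all 13 was 7.45 FPKM. The GABA-B receptor subunits Gabbr1 and Gabbr2 were at 191 and 48.4 FPKM and the adenosine receptor gene Adora1 at 43.1 FPKM. At the low end stood Drd2, a dopamine receptor gene, at 1.63 FPKM and Oprm1, the mu opioid receptor gene, just under the floor at 0.976 FPKM. The 16 G proteins and regulators all passed the floor (median 31.2 FPKM). The G protein beta subunits Gnb2 and Gnb1 were at 298 and 213 FPKM and Rgs4, which speeds the shut-off of G proteins, at 97.1 FPKM, while Gnb4 was at 6.20 and Kctd8, an auxiliary subunit of GABA-B receptors, at 1.36 FPKM. Of protein-coding rows 58.6% passed the same floor, but these lists were assembled from genes known to act in brain. That share also stands beside the counts of the partner lists below, which were chosen with earlier results of these data known.

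ATP-sensitive channels pair a pore subunit with a sulfonylurea receptor and close when cellular ATP is high. The pore gene Kcnj11 (chromosome 7, 46097123 to 46100952) was at 13.3 FPKM and its usual receptor in neurons, Abcc8, at 5.44 FPKM, 2.44-fold lower. The vascular pair was lower, with Kcnj8 at 1.11 FPKM, just above the floor, and Abcc9 at 0.734 FPKM, just below it. Kcnj11 was 11.9-fold above Kcnj8, and Abcc8 was 7.41-fold above Abcc9. Kcnj8 and Abcc9 are known from mural cells of vessels. Among the other mural markers Vtn was at 27.8, Rgs5 at 13.0, Acta2 at 4.44 and Pdgfrb at 3.13 FPKM, and their part in the Kcnj8 level was not tested.

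Among inward rectifiers of glia and epithelia Kcnj10 was highest. Kcnj10 (ENSMUSG00000044708; chromosome 1, 172341210 to 172374085), the main potassium uptake channel gene of astrocytes, was at 25.2 FPKM. Kcnj16, whose protein joins that of Kcnj10 and makes the channel sensitive to pH, was at 5.41 FPKM, 4.66-fold lower. Kcnj15 and Kcnj1, channel genes known from kidney, were at 0.0260 and 0.00111 FPKM, the latter the lowest of the 41 genes. Of the 9 genes listed as scaffolds or other partners of inward rectifiers 9 passed the floor, and their median was 15.6 FPKM. The list includes Aqp4, which was also counted among the astrocyte markers. Dlg4, the major scaffold of excitatory synapses, was at 380 FPKM, Dlg2 at 41.2 and Dlg3 at 35.6 FPKM, with Lin7a lowest at 8.34 FPKM.

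Kcnj13, a channel gene of the choroid plexus and retinal pigment epithelium, was at 8.57 FPKM, 2.94-fold below Kcnj10. Markers of choroid plexus, a tissue outside the cortex, were present beside it, with the transthyretin gene Ttr at 566 FPKM, Folr1 at 12.5, Kl at 4.72, Clic6 at 3.68 and Aqp1 at 1.66 FPKM. None of these 5 markers was at 0, and their part in the Kcnj13 level was not tested. Kcnj13 (chromosome 1, 87384577 to 87394729) also lies inside the span of Gigyf2, a translational regulator gene, which was at 19.7 FPKM. The handling of strand is not given, so reads of these overlapping genes cannot be told apart with certainty.

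The neighbouring genes Kcnj9 and Kcnj10 differ in promoter sequence while their levels lay within 1.27-fold. They sit 11.9 kb apart on chromosome 1 with no other RefSeq gene between them, and were set side by side after the levels were seen. Both promoters are shown to set a CpG-poor beside a CpG-richer start at similar levels of tissue RNA. Each is the 250 bases before the start with CpG in capitals. The Kcnj9 stretch (chr1:172329323-172329572, minus strand) holds 5 CpG and the Kcnj10 stretch (chr1:172340960-172341209, plus strand) holds 17.
Kcnj9: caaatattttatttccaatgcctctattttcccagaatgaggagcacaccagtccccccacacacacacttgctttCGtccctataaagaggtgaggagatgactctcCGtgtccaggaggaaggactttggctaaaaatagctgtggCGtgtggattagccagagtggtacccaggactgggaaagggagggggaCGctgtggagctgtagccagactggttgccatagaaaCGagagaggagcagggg
Kcnj10: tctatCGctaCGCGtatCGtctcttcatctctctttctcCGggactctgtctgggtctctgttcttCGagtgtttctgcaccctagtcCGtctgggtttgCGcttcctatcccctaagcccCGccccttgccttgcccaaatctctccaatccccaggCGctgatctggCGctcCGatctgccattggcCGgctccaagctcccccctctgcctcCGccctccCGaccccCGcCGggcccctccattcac

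Tandem-pore channel genes were the class with the lowest median over all members, 0.940 FPKM over 13 genes, and 6 of the 13 were detected. Over detected members alone their median was 4.67 FPKM, above the 3.14 FPKM of the SK and intermediate-conductance genes and the 3.80 FPKM of the classical inward rectifiers. Kcnk1 (ENSMUSG00000033998; chromosome 8, 125993655 to 126030685), a weak inward rectifying leak channel gene of neurons and astrocytes, was highest at 26.7 FPKM. Its closest relative Kcnk6 was 28.4-fold lower at 0.940 FPKM, just under the floor. Of the mechanosensitive and lipid-sensitive group Kcnk2 was at 11.4 FPKM, Kcnk4 at 4.98 and Kcnk10 at 0.915 FPKM. Kcnk2 was thus 2.30-fold above Kcnk4 and 12.5-fold above Kcnk10. Kcnk10 lay just under the floor.

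The acid-sensitive Kcnk3 was at 4.37 FPKM and its relative Kcnk15, which gives no current on its own, at 0.0126 FPKM, 346-fold lower. That fold is uncertain. The log2 difference was 8.43 with nothing added, 5.31 with 0.1 added to both levels and 2.41 with 1 added. A RefSeq non-coding gene, Gm9899, overlaps Kcnk3 and was at 4.99 FPKM, so the Kcnk3 value is uncertain. Kcnk13, known from microglia, was at 1.55 FPKM and Kcnk12, its relative, at 1.44 FPKM, within 1.07-fold. The microglial markers ranged from Tmem119 at 7.66 to C1qa at 39.0 FPKM, and their part in the Kcnk13 level was not tested. The others were low. Kcnk5, an alkaline-activated channel gene of kidney, was at 0.191 FPKM and Kcnk7, whose protein gives no current alone, at 0.0736 FPKM. Kcnk18, a calcineurin-regulated channel gene of sensory neurons, was at 0.00915 FPKM and Kcnk16, a channel gene of pancreatic islets, at 0.00472 FPKM.

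The promoter of Kcnk15, picked after the levels were seen, is shown because its gene was among the 4 lowest of the set. The stretch holds as many CpG, 17, as that of Kcnj10. It is again the 250 bases before the start with CpG in capitals (chr2:163853500-163853749, plus strand).
Kcnk15: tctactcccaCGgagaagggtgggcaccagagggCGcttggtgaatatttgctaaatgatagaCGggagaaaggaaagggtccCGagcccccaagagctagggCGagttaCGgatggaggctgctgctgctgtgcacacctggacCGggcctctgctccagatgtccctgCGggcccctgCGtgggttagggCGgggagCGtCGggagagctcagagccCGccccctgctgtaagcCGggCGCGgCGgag

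Genes listed as regulators of tandem-pore channels were all detected, 8 of 8 matched, with a median of 42.2 FPKM (58.6% of protein-coding rows were detected). The 14-3-3 genes Ywhaz and Ywhab, whose proteins help some of these channels reach the surface, were at 191 and 178 FPKM and the microtubule protein gene Map2 at 174 FPKM. Plcb1, a phospholipase on the path by which Gq-coupled receptors close leak channels, was at 28.5 FPKM and the anchoring protein gene Akap5 at 10.7 FPKM.

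Large-conductance calcium-activated (BK) channels were represented by the pore gene and a brain-type auxiliary gene within 2-fold of each other. Kcnma1 (ENSMUSG00000063142; chromosome 14, 23292288 to 24005110), the pore-forming gene, was at 14.7 FPKM. Kcnmb4 (ENSMUSG00000054934; chromosome 10, 116417861 to 116473859), the beta subunit typical of neurons, which slows the channel and makes it resistant to iberiotoxin, was at 22.95 FPKM, 1.56-fold above the pore gene. Kcnmb2, an inactivating beta subunit, was at 3.03 FPKM, 7.58-fold below Kcnmb4. Kcnmb1, the smooth muscle beta subunit, was at 0.161 FPKM, 143-fold below Kcnmb4. The RefSeq non-coding genes Kcnmb4os1 and Kcnmb4os2 overlap Kcnmb4 and were at 25.5 and 9.70 FPKM, so the Kcnmb4 level is uncertain. Kcnmb1 lies inside the span of Kcnip1, which was at 9.83 FPKM.

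The 2 beta subunit genes at the ends of this range had the most and the fewest CpG in the 300 bases from 250 before to 50 after the start, 48 and 1, among the 34 members with such a window. Of the 250 bases before the start, the Kcnmb4 stretch (chr10:116473524-116473773, minus strand) holds 43 CpG and the Kcnmb1 stretch (chr11:33962763-33963012, plus strand) holds 1, marked in capitals. These starts lie 336 and 58 bases inside the spans of their genes.
Kcnmb4: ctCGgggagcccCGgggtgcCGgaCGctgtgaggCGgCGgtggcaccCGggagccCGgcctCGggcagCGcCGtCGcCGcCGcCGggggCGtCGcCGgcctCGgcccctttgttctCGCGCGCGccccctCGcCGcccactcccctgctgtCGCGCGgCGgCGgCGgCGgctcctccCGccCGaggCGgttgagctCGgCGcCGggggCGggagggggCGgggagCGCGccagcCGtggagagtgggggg
Kcnmb1: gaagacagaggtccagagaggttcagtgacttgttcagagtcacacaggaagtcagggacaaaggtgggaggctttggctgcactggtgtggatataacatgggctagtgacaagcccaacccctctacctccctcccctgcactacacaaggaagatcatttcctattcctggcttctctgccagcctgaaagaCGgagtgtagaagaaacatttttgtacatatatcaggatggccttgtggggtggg

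Of the BK gamma subunit genes, which shift channel opening to more negative voltages, 1 of 4 was detected. Lrrc55 was at 4.45 FPKM, 3.31-fold below Kcnma1, followed by Lrrc38 at 0.736, Lrrc26 at 0.493 and Lrrc52 at 0.0121 FPKM. All 11 genes listed as calcium sources for BK and small-conductance channels were detected, with a median of 12.8 FPKM. Grin1, the obligatory NMDA receptor subunit gene, was at 217 FPKM, the store release channel gene Itpr1 at 54.0 and the presynaptic calcium channel gene Cacna1a at 25.4 FPKM. Ryr3 and Cacna1d were lowest at 4.54 and 4.53 FPKM.

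Among the small-conductance (SK) channel genes, which carry the medium afterhyperpolarisation, Kcnn2 was highest at 14.0 FPKM. Kcnn1 was at 3.14 FPKM, 4.46-fold lower, and Kcnn3 at 2.21 FPKM, 6.34-fold lower, and these last genes lay within 1.42-fold of each other. Kcnn4, the intermediate-conductance channel gene of blood cells, was at 0.0658 FPKM, 213-fold below Kcnn2. A non-coding gene that overlaps Kcnn2, A330093E20Rik, was at 11.4 FPKM, so the Kcnn2 value is uncertain. The SK complex contains calmodulin as its calcium sensor, with casein kinase and a phosphatase bound to it. All 8 listed genes of the complex were detected, with a median of 175 FPKM. The calmodulin genes Calm3 and Calm2 were at 1260 and 1032 FPKM, and the casein kinase catalytic subunit genes Csnk2a1 and Csnk2a2 at 12.8 and 6.68 FPKM. Calmodulin serves many other proteins, and its genes have close copies, so these values are uncertain.

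Both sodium-activated channel genes were detected. Kcnt1 (ENSMUSG00000058740; chromosome 2, 25863791 to 25918273) was at 24.8 FPKM and Kcnt2 at 5.37 FPKM, so that Kcnt1 was 4.61-fold higher. Fmr1, whose protein binds the Kcnt1 channel, was at 13.7 FPKM and Cyfip1, a partner of the Fmr1 protein, at 19.9 FPKM.

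Of the 3 HCN genes in the set Hcn2 was highest. Hcn2 (ENSMUSG00000020331; chromosome 10, 79716634 to 79736108), a strongly cyclic AMP-sensitive subunit, was at 22.2 FPKM, 4.50-fold above Hcn3 at 4.93 FPKM. Hcn4, the pacemaker subunit of the sinoatrial node, was under the floor at 0.355 FPKM, 62.4-fold below Hcn2 and 13.9-fold below Hcn3. Pex5l, which encodes the brain HCN subunit TRIP8b that steers the channels to dendrites, was at 59.8 FPKM, 2.69-fold above Hcn2. Of 6 listed regulators 5 were detected, and the median of all 6 was 17.7 FPKM. Ranbp1 was at 33.2 and Kctd3 at 22.7 FPKM, while Kcne2, a small accessory subunit gene, was at 2.45 and the muscle caveolin gene Cav3 at 0.191 FPKM.

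**Figure D2:**
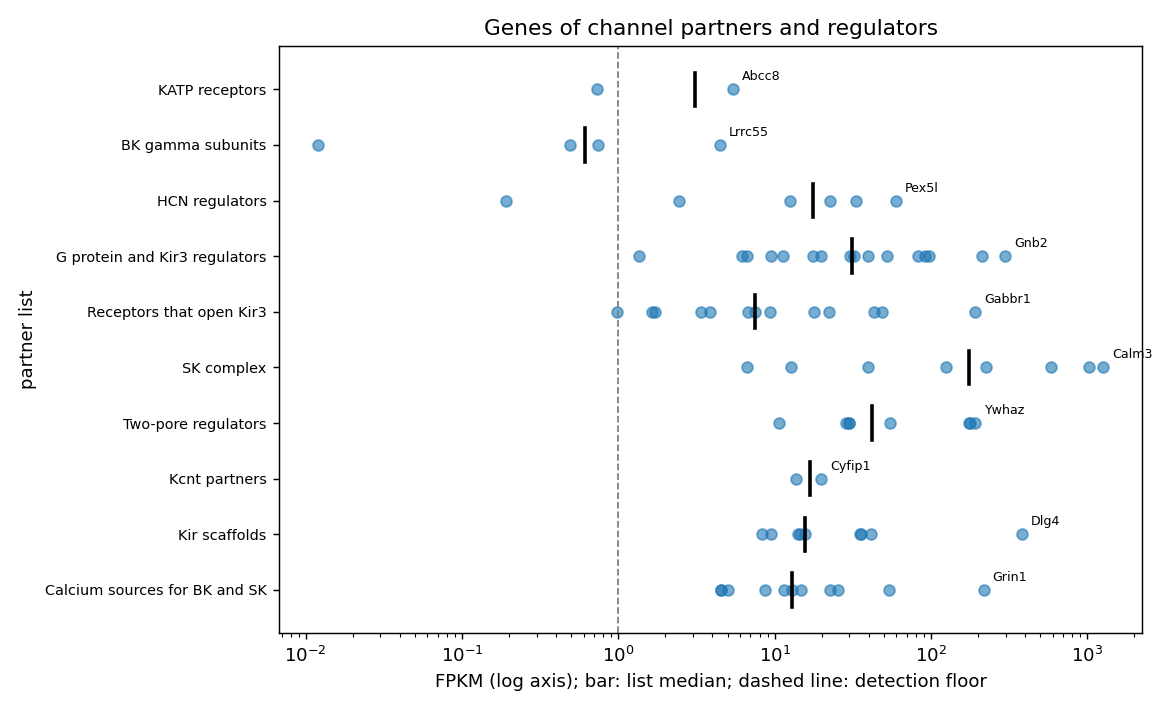
Levels of the partner and regulator genes by list, 1 point per gene on a log axis in FPKM, with a bar at each list's median and a dashed line at the floor of 1 FPKM; the highest gene of each list is named. The medians run from 0.614 FPKM for the BK gamma subunits to 175 FPKM for the SK complex, and 73 of 79 genes lie above the floor. Of protein-coding rows 58.6% reach it, but the lists were chosen with earlier results of these data known.

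Across 33 pairs of related genes or partners, 27 lay at least 2-fold apart on the log2(FPKM + 1) scale, which understates differences that involve low genes. The gene written first was higher in 25 of them, an order that had been set with earlier results of these data known. The gene written second was higher in Kcnn1 against Kcnn2 and in Hcn2 against Pex5l. The 6 pairs within 2-fold were Kcnj3 and Kcnj9, Kcnj12 and Kcnj2, Kcnj8 and Abcc9, Kcnk12 and Kcnk13, Kcnma1 and Kcnmb4, and Kcnn1 and Kcnn3.

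**Figure D3:**
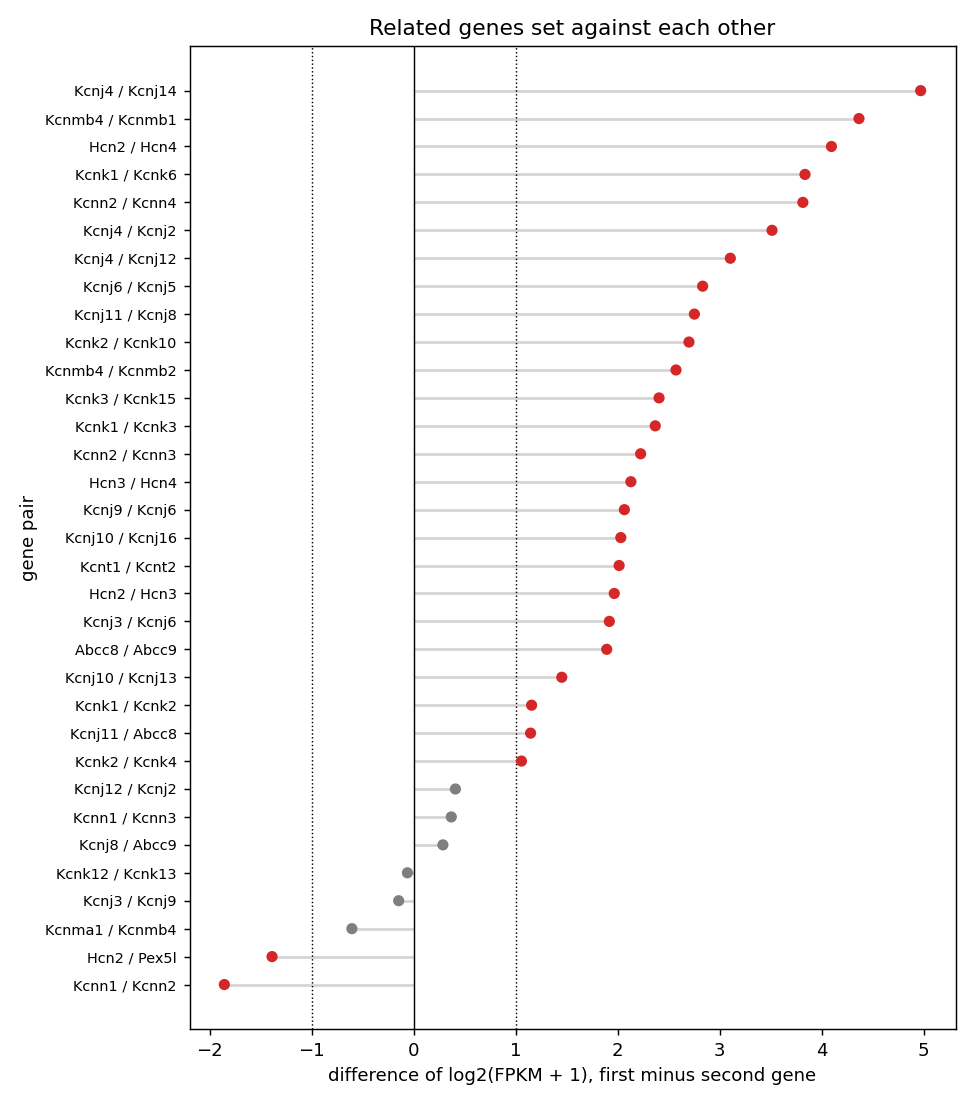
Difference of log2(FPKM + 1) between the first and second gene of each of 33 pairs, 1 point per pair; red points lie at or beyond the dotted 2-fold lines and grey points within them. The widest difference is 4.97 for Kcnj4 over Kcnj14, and Kcnn1 lies 1.86 below Kcnn2 (-1.86 on the axis).

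Promoter windows were described because the series concerns methylated DNA, although no methylation value was used. RefSeq (GRCm38.p6) windows of 250 bases before to 50 after the start were found for 34 of the 41 genes, and Kcnj11, Kcnj14, Kcnk3, Kcnk6, Kcnn2, Kcnt1 and Hcn3 were without one. In 10 of the 34 the start lay over 1 kb inside the gene's span, and which start is used in this tissue was not examined. A window was called CpG-rich at a GC content of 50% or more and an observed over expected CpG ratio of 0.6 or more. Of the 34 genes 11 (32.4%) had such a window, against 49.7% of 16563 protein-coding genes. Among these 11 the whole window held 48 CpG for Kcnmb4, 41 for Kcnj4, 36 for Kcnma1, 33 for Kcnk2, 31 for Hcn4, a gene under the floor, and 30 for Kcnj6. Kcnk1 fell just outside, with a ratio of 0.589 and a GC content of 49.0%.

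Channel genes without a CpG-rich window passed the floor in 14 of 23 cases (60.9%) and had a median of 2.21 FPKM. Of all protein-coding genes without such a window 30.0% passed it, and their median was 0.0619 FPKM. The groups were not alike in CpG, as the channel windows had a median of 9 CpG and a ratio of 0.41, against 4 CpG and 0.25 for the protein-coding windows. Kcnj9 with 5 CpG at 32.0 FPKM, Kcnj3 with 10 CpG at 28.8 FPKM and Kcnk4 with 5 CpG at 4.98 FPKM belonged to the channel genes without a CpG-rich window. The Kcnj3 start lies 24.2 kb inside its gene's span. Most of the 10 windows with a start over 1 kb inside were likewise not CpG-rich, while those of Kcnj4 and Kcnk2 were. The ones not CpG-rich belonged to the detected genes Kcnj3, Kcnk1, Kcnj16, Kcnj12, Kcnn1 and Kcnk13 and to Kcnk10 and Kcnj1, under the floor. Another start of these genes may be the one in use. Such starts were not counted for the protein-coding genes, so 60.9% and 30.0% may not compare like windows. Channel genes with a CpG-rich window passed the floor in 8 of 11 cases (72.7%) and had a median of 11.4 FPKM, against 87.6% and 9.10 FPKM for protein-coding genes. The exceptions were Hcn4, Kcnk5 and Kcnk15. Across the 34 genes Spearman's rho between FPKM and the CpG ratio was 0.43 and Pearson's r of log2(FPKM + 1) was 0.42, against 0.66 and 0.60 across the 16563 genes. These are descriptions across genes of 1 sample, which share a library and are not replicates.

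**Figure D4:**
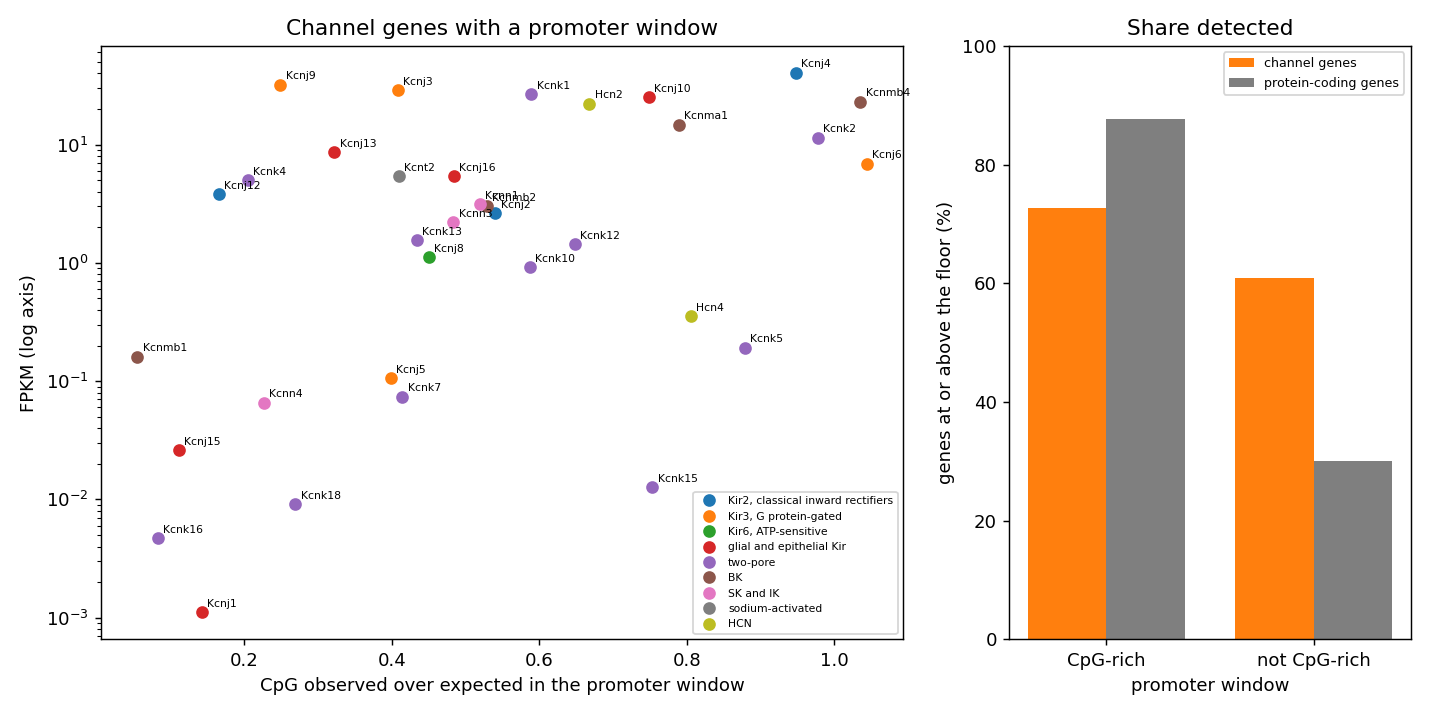
Left, FPKM on a log axis against the observed over expected CpG ratio of the promoter window for the 34 channel genes that have one, 1 point per gene, coloured by class. Right, percent of genes at 1 FPKM or more by type of window, for the channel genes (orange) and all protein-coding genes (grey); without a CpG-rich window the bars stand at 60.9% and 30.0%. In 10 of the 34 channel windows the start lies over 1 kb inside the gene's span, and such starts were not counted for the protein-coding genes.

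A set of 4 short motifs was searched in the same windows, on both strands. The TATA box TATAAA occurred in 3 of 34 windows, those of Kcnj9, Kcnj13 and Kcnj15, and in 12.3% of protein-coding windows. The GC box GGGCGG was in 16 windows (47.1%, against 49.4%), 10 of detected genes and 6 of genes under the floor, and CCAAT was in 9 (26.5%, against 37.8%). The cyclic AMP response element TGACGTCA was in none of the 34, against 2.40%. A match is only a match of letters in this window.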

How the data were processed

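RNA of mPFC from untreated mice was measured in 1 of 3 samples. Per the labels' protocols, DNase-treated total RNA was prepared with the Illumina TruSeq RNA v2 kit. The build mm10 and the tools TopHat, Cufflinks and CASAVA 1.8.2 are named in the submitters' processing notes. Versions of the aligner and of Cufflinks, the annotation, strand handling and how replicates were combined are not given in the sources. The authors deposited FPKM. The 2 value columns were equal in 46073 of 46073 rows and were treated as 1 value. Sequencing depth is unknown, and intervals for counting error could not be had.

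Identifiers were matched to symbols for 45139 rows, and gene classes, coordinates and promoter windows came from RefSeq (GRCm38.p6, the assembly of mm10). Where a gene had several windows, that with the most CpG was used. Of the listed partner symbols 1 was an older name of another listed gene (Map2) and was not matched. The members, lists and pairs were chosen with earlier results of these data known. The text names all 41 members, the genes of pairs, and the 3 highest and 2 lowest genes of each partner list, other genes being named after their values were seen. Some genes that this rule takes are not reported here, while counts and medians include them. The computations were tested on simulated data. The software was pandas 2.3.3 and numpy 2.4.6 under Python 3.11.15, with figures drawn in matplotlib 3.10.9. Alternatives covered the floor, pseudocount, scaling, summary and windows. No test between groups was run, and the DNA samples were not analysed here.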

Additional observations from a re-analysis of the deposited data

How the results depend on the processing

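The table holds 1 value per gene, so leaving out a replicate was not possible, and no paired analysis was possible because there is 1 RNA sample and no second group. The number of detected channel genes was 29, 34 and 24 at floors of 0.5, 0.1 and 2 FPKM, against 27 at 1 FPKM. It was 29 after rescaling to sum to 1000000 without mitochondrial rows, which multiplies every level by 2.54 and leaves ratios as they are. The median of the set, 3.14 FPKM, became 3.60 as a geometric mean, 6.88 over detected genes only and 7.98 after rescaling. Of the 9 classes 8 had a median above the floor, and 9 did by geometric mean and after rescaling; over detected genes alone all 9 must. Of the pairs, 27 were 2-fold apart with a pseudocount of 0.1 and with none, and 17 when both genes had to be detected, since that leaves 22 pairs. The share of the 5 highest genes was 46.0% with Kcnj4 left out. Partner genes detected numbered from 70 to 78 of 79 over the alternatives. With stricter limits for CpG-rich windows (55% GC and a ratio of 0.65), or with the mean over windows, both chosen after seeing the data, 10 of 34 channel genes had one, and 62.5% of the rest were detected, against 36.9% and 33.8% of protein-coding genes.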

Other observations

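Several of the channel genes lie near each other or beside a receptor gene, and the ratio between neighbours varied widely. These values were looked at after the levels were known, and positions are those of RefSeq on GRCm38. Kcnj11 and Abcc8, pore and receptor of the ATP-sensitive channel, are 3.57 kb apart on chromosome 7 and were at 13.3 and 5.44 FPKM, 2.44-fold apart. Kcnj8 and Abcc9, the vascular pair, are 16.2 kb apart on chromosome 6 and were at 1.11 and 0.734 FPKM, 1.52-fold apart. Kcnj16 and Kcnj2 are 38.2 kb apart on chromosome 11 and were at 5.41 and 2.62 FPKM, 2.07-fold apart. Kcnj6 and Kcnj15, 260 kb apart on chromosome 16 with no protein-coding gene between them, were at 6.88 and 0.0260 FPKM, a 265-fold difference. Kcnj14 and Kcnj11, 272 kb apart on chromosome 7 with 9 protein-coding genes between them, were at 0.317 and 13.3 FPKM. Hcn3 and Kcnn3, 360 kb apart on chromosome 3 with 26 protein-coding genes between them, were at 4.93 and 2.21 FPKM. Some neighbours were low in both genes. Kcnj5 and Kcnj1, 28.0 kb apart on chromosome 9, were at 0.106 and 0.00111 FPKM, and Kcnk5 and Kcnk16, 79.6 kb apart on chromosome 14, were at 0.191 and 0.00472 FPKM.

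Of the 41 genes 16 overlap another RefSeq gene, 4 of them a protein-coding one. Besides Kcnj13 and Kcnmb1, these are Hcn3, which partly overlaps Pklr at 0.00783 FPKM, and Kcnk7, which partly overlaps Ehbp1l1 at 4.20 FPKM. The Kcnk7 value is therefore uncertain.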
